A study of Mus musculus with 24 samples.

Results

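The genes described here encode the collagen chains, taken as every mouse gene whose symbol is Col, a number, the letter a and a number. The rule found 44 genes of the 30699 that the files list, and 43 of the 44 were listed in each table. Col10a1 was not listed in either white fat table, Col9a1 was not listed for brown fat with antimiR-224, and Col6a4 was not listed for brown fat with antimiR-452. The measurements are RNA-seq of polyadenylated RNA from the white (WAT) or brown (BAT) adipose tissue of C57BL/6 mice. Each mouse had been given 2 injections under the skin, at 25 mg/kg, of an oligonucleotide modified with locked nucleic acid (LNA), a chemistry that makes it bind its partner RNA tightly. The oligonucleotide was antisense to miR-224 (antimiR-224), antisense to miR-452 (antimiR-452) or a scrambled sequence (scramblemiR), so every group, controls included, had received an LNA oligonucleotide. Each treatment had 4 libraries in each tissue, 24 in all, and the labels used here name no age, sex or fat depot. They do not say that the 4 libraries of a group came from separate mice, so p-values here measure only the spread between these samples.

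A collagen is built from a trio of chains wound into a triple helix, and the chains of one type are often encoded by separate genes. Fibrillar collagens form the tension-bearing fibres of the stroma, and type IV collagen forms the sheet-like network of the basement membrane that surrounds each adipocyte and vessel. Type VI collagen forms beaded filaments and is abundant around adipocytes. The other classes sit on fibril surfaces (the FACIT collagens), in basement membrane zones (the multiplexins), in short-chain hexagonal networks, in the plasma membrane or in anchoring fibrils.

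Control libraries held 22175430 to 27935908 reads in genes in WAT and 16960694 to 20255777 in BAT. Libraries are numbered 1 to 4 within their group by descending size factor, because they could not be tied to the sample titles. Markers of brown adipocytes summed to 231 to 716 normalized counts in WAT controls and to 106700 to 265500 in BAT controls, which fits the tissue labels. Some libraries stood apart. Male germ cell markers (8 of 8 genes recovered) had a geometric mean of 826 and 237 in WAT antimiR-224 libraries 3 and 4 and of 2807 in WAT scramblemiR library 2, against 0.453 to 61.1 in the other WAT libraries. Markers of skeletal muscle summed to 1140000 and 1266000 in BAT scramblemiR libraries 1 and 2, while libraries 3 and 4 had 644 and 1151. None of the 8 muscle markers was recovered in the BAT inhibitor groups. Myf6, a muscle transcription factor picked out after its values were seen, had 518, 5.85, 7.94 and 3.50 in BAT antimiR-224 and 1502, 38.8, 0 and 86.8 in BAT antimiR-452, against 966, 627, 1.06 and 0 in BAT scramblemiR, so library 1 of each inhibitor group is counted with those high in muscle genes. In WAT antimiR-452 library 3 the 7 muscle markers recovered summed to 11580. Markers of ciliated epithelium stood high in other WAT libraries, and their values are given with the collagens they accompany. In RNA from whole tissue, fewer cells of a type and less RNA per cell cannot be told apart.

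The microRNAs that the oligonucleotides were directed against are shown because their seeds, bases 2 to 8 in capitals, set which transcripts they can pair with. Both lie on the minus strand of chromosome X, miR-224 at chrX:72261085-72261105 and miR-452 at chrX:72262271-72262292 (RefSeq, GRCm38.p6). Their seeds differ.
mmu-miR-224-5p: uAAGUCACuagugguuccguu
mmu-miR-452-5p: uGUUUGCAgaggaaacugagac
A match to the miR-224 seed, GTGACTT, was found in the 3′ UTR of 8 of the 36 collagen genes with an annotated 3′ UTR, which is 22.2%, against 12.5% of 15130 genes. These 8 were Col4a3, Col4a4, Col6a1, Col6a5, Col7a1, Col12a1, Col22a1 and Col23a1. The median 3′ UTR was longer among these collagens, at 1175 bases against 892 over the 15130 genes. A match to the miR-452 seed, TGCAAAC, was found in 2 of the 36, which is 5.56% against 8.96% of the 15130 genes, and these were Col4a4 and Col9a3. The windows of Col4a3 and Col4a4 are printed because these chains had the highest WAT ratios of the type IV class under either inhibitor. They come from GENCODE M21 transcripts on GRCm38, and capitals mark the seed match.
Col4a3, chr1:82721179-82721207, plus strand, miR-224: aaaactcactgGTGACTTtcagggtaatc
Col4a4, chr1:82451743-82451771, minus strand, miR-224: gtcaatttgcaGTGACTTttctgcatacc
Col4a4, chr1:82451339-82451367, minus strand, miR-452: ttctgtacccaTGCAAACgcccacccaca
A seed match is a description of these letters and is not a measured site of repression.

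In control fat, a small group of chains made up most of the collagen message. Levels between genes are normalized counts per kilobase of exon, on a scale common to the 8 control libraries, as mean ± SD (n = 4 for each tissue). Fibrillar chains made up 40.9% of the summed collagen level per kilobase in WAT and 40.9% in BAT, and type VI chains 16.2% in WAT and 10.99% in BAT. Type IV chains made up 32.3% in WAT and 42.2% in BAT, but their share ranged from 27.3% to 37.2% over WAT libraries and from 31.6% to 53% over BAT libraries, so the tissues overlap. Multiplexins made up 8.46% in WAT and 3.32% in BAT, with 6.56% to 11.1% over WAT libraries and 2.77% to 3.63% over BAT libraries, which do not overlap.

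**Figure D1:**
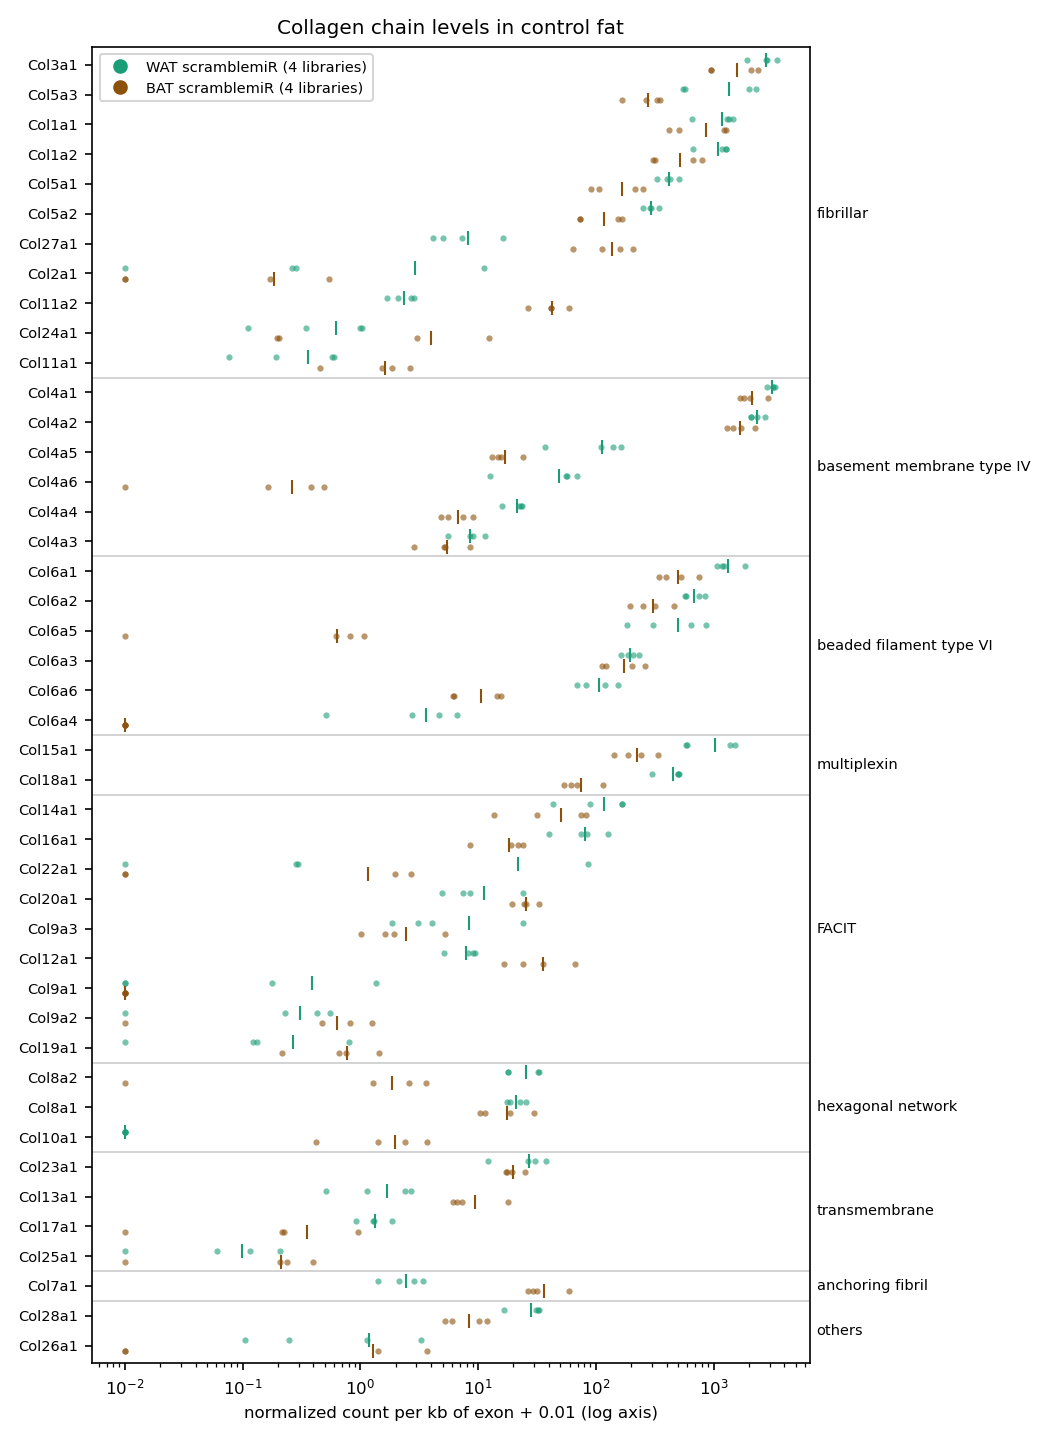
Level of each of the 44 collagen chains in control fat, as normalized counts per kilobase of exon plus 0.01 on a log axis, grouped by class. Dots are the 4 scramblemiR libraries of WAT and of BAT, ticks are means, and dots at the left edge are at 0. Col4a1 and Col3a1 stand at the right in both tissues, and Col6a5 and Col4a6 lie far apart between them.

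The highest chain in either tissue was Col4a1, which forms the main type IV network with Col4a2, at 3132 ± 209 per kb in WAT and 2109 ± 544 per kb in BAT. Col3a1, the chain of the fibrillar type III homotrimer, led its class at 2766 ± 626 per kb in WAT and 1585 ± 743 per kb in BAT. Col6a1, a chain of the classical type VI trimer, led its class at 1335 ± 351 per kb in WAT and 502 ± 181 per kb in BAT. These leaders were the same in both tissues. Col15a1, a multiplexin of the basement membrane zone, had 1022 ± 504 per kb in WAT and 226 ± 82.4 per kb in BAT. Col14a1, a FACIT chain that decorates fibrils, had 117 ± 61.4 per kb in WAT and 50.5 ± 33.2 per kb in BAT. Both led their class in either tissue, as did Col28a1, known from peripheral nerve, and the membrane-spanning Col23a1. Col28a1 had 28.3 ± 7.72 per kb in WAT and 8.34 ± 3.21 per kb in BAT. Col23a1 had 26.9 ± 10.9 per kb in WAT and 19.8 ± 3.65 per kb in BAT. The hexagonal network was led by different genes. Col8a2 had 25.3 ± 8.58 per kb in WAT and 1.86 ± 1.56 per kb in BAT, while Col8a1 had 21.1 ± 3.75 per kb in WAT and 17.6 ± 8.95 per kb in BAT.

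In the separate libraries Col3a1 had 33946, 27664, 28002 and 19012 normalized counts in WAT, against 20322, 9324, 23258 and 9346 in BAT, and BAT libraries 1 and 3 lay above WAT library 4. Col6a1 had 8115, 5372, 4707 and 5203 in WAT, against 2305, 1724, 3273 and 1499 in BAT, and Col6a2 had 7081, 4907, 4731 and 6249 in WAT, against 2646, 2101, 3870.1 and 1614 in BAT. Neither type VI chain overlapped. Col14a1 had 1166, 626, 1179.7 and 301 in WAT, against 523, 221, 577 and 96.1 in BAT, which overlap. Col23a1 had 176, 218, 69.8 and 154 in WAT, against 144, 101, 98.5 and 111 in BAT, which overlap as well. Col28a1 had 158, 152, 82.2 and 163 in WAT, against 58.4, 49.9, 25.7 and 29.6 in BAT, and every WAT library lay above every BAT library.

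Chains of one trimer kept closer ratios across libraries for some pairs than for others. Type I collagen is built from the products of Col1a1 and Col1a2, whose ratio per kilobase was 0.979 to 1.14 over WAT controls and 1.32 to 1.84 over BAT controls. For Col4a1 over Col4a2 the ratio was 1.20 to 1.53 in WAT and 1.19 to 1.29 in BAT. For Col5a1 over Col5a2, chains of the type V collagen that regulates fibril width, it was 1.105 to 1.69 in WAT and 1.23 to 1.64 in BAT. Among type VI chains, Col6a1 over Col6a2 was 1.58 to 2.18 in WAT and 1.56 to 1.76 in BAT, and Col6a3 over Col6a1 was 0.125 to 0.168 in WAT and 0.308 to 0.388 in BAT. The type I ratio and the ratio with Col6a3 did not overlap between the tissues, and the other 3 ratios did. In counts, Col1a2 had 15884, 15904, 14575 and 8348 in WAT, against 9904, 3924, 8281 and 3836 in BAT, and Col4a2 had 15489.9, 13834, 13779 and 18298 in WAT, against 8685, 9694, 14983 and 11304 in BAT. Both overlapped between the tissues. Col5a1 had 4359.9, 3398, 2788 and 3627 in WAT, against 1829, 905, 2141 and 772 in BAT, and Col5a2 had 3273, 2782, 2849.7 and 2423 in WAT, against 1609, 710.3, 1478 and 711 in BAT, and these did not overlap. These ratios rest on exon-union lengths, and the transcripts used in each tissue were not examined.

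The comparison of WAT with BAT controls asks which chains mark each tissue. More chains were higher in WAT than were lower. Of 38 collagens with a mean of at least 10, 24 passed limma's test at an adjusted p under 0.05, 18 higher and 6 lower in WAT. Over all 16818 genes tested, 42% passed, 22.1% higher and 19.9% lower in WAT. The median log2 difference, WAT minus BAT, was 1.17 over the 38 collagens and 0.08 over all genes. Of the 38, 10 had a mean under 10 in one tissue and passed the filter through the other. Of these, 5 were called, 4 higher in WAT (Col4a6, Col6a4, Col6a5 and Col8a2) and Col13a1 lower. The other 28 held 19 of the calls. The groups did not overlap for 21 of the 38, 16 higher and 5 lower in WAT, against 41.3% of all genes, 21.4% higher and 19.9% lower. Col9a1, Col9a2, Col10a1, Col17a1, Col19a1 and Col25a1, the remaining 6, were too low to be tested, and none exceeded 11.4 in a control library. Scaling moved these differences: the median of all genes was 0.61 with total-count scaling and 0.95 with the size factors of the deposited tables, and 27 collagens (22 higher, 5 lower) and 31 (26 higher, 5 lower) were then called. Over all genes these scalings called 7290 higher and 1650 lower, and 10183 higher and 1112 lower, in WAT. No called collagen changed its direction under either scaling. Markers of fibroblasts and stromal progenitors (10 of 10 genes, none at 0 in all libraries of a tissue) summed to 14550 to 21750 in WAT controls and 5920 to 13070 in BAT controls, which do not overlap. By gene, only Dpt, Dpp4 and Cd34 did not overlap, and Pdgfrb had 1032, 1715, 1072 and 1251 in WAT, against 977, 1505, 2157 and 1532 in BAT. Sums of macrophage markers (10120 to 12710 in WAT, 1981 to 4223 in BAT) and mature adipocyte markers (629400 to 984600 in WAT, 319800 to 468800 in BAT) did not overlap either. Of the adipocyte markers, Plin1, Lipe and Pnpla2 did overlap by gene, and the others were higher in WAT without overlap. Pnpla2 had 69360, 47400, 83090 and 56740 in WAT, against 71690, 69320, 83330 and 123400 in BAT. Sums of some other lists differed too, and the part of any cell type in these differences was not tested.

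**Figure D2:**
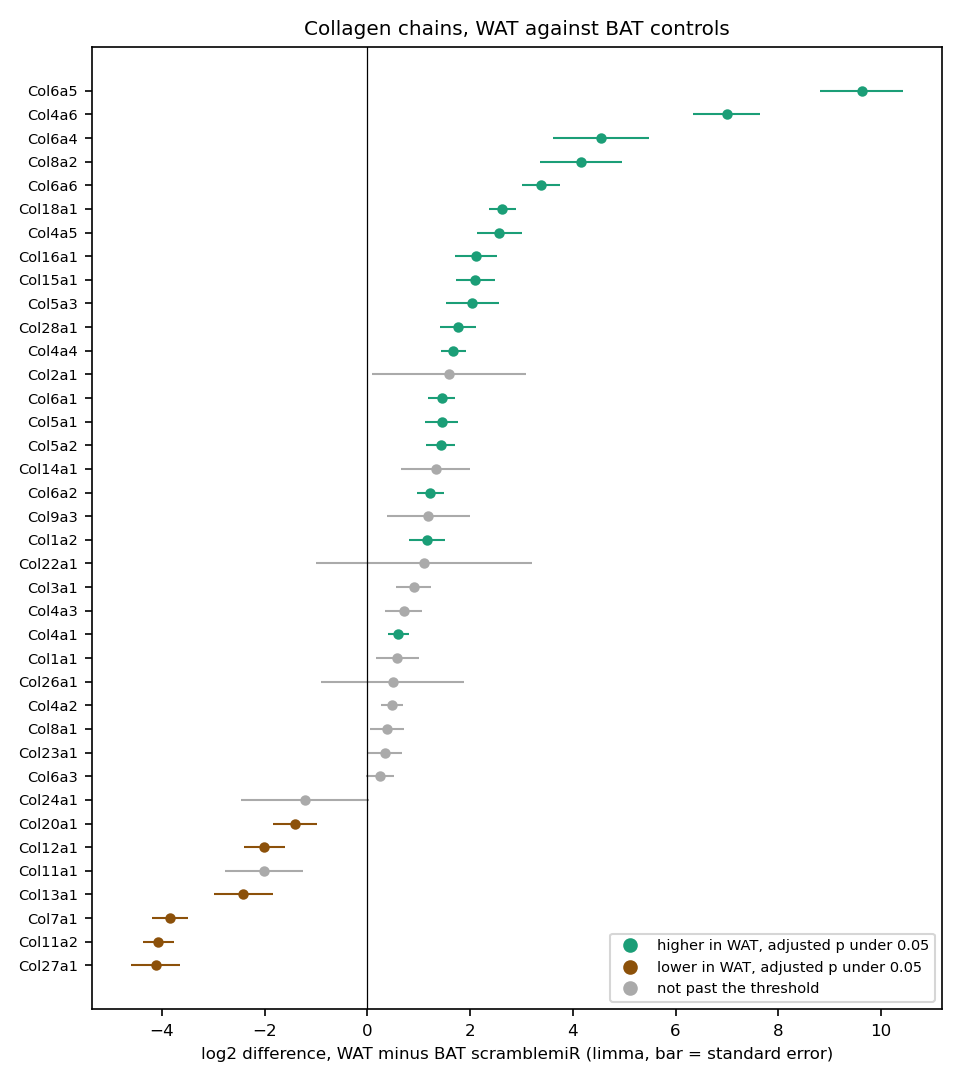
Log2 difference of each tested collagen chain between WAT and BAT controls (limma, WAT minus BAT, x axis), with its standard error (n = 4 libraries each). Colours mark chains higher in WAT, lower in WAT, or not past an adjusted p of 0.05. Col6a5 at 9.62 and Col27a1 at -4.12 are the ends, and the value of Col6a4 rests on BAT libraries that are all at 0.

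Type VI chains were called higher in WAT for 5 of 6, against 22.1% of all genes, with a median log2 difference of 2.41. Of these 5, Col6a4 and Col6a5 passed the filter only through WAT, and both enter that median. The genes of its long alternative chains, which resemble the Col6a3 product, lie side by side on the minus strand of chromosome 9. Col6a5 (chr9:105856078-105960643) had 6065, 8109, 2867 and 1727 normalized counts in WAT libraries 1 to 4, against 9.93, 7.68, 5.71 and 0 in BAT libraries 1 to 4. All WAT libraries lay far above all BAT libraries, in which 18 reads were counted in total, and the log2 difference was 9.62 ± 0.82 (SE, limma adjusted p = 7.6e-05). Its neighbour Col6a6 (chr9:105687809-105828160) had 1092, 1418, 758 and 639 in WAT, against 143, 57.6, 133 and 56.2 in BAT, with no overlap and a log2 difference of 3.38 ± 0.38 (SE, limma adjusted p = 0.000137). Col6a4 (chr9:105989454-106096783) had 23.5, 56.0, 39.6 and 4.24 in WAT and 0 reads in every BAT control. Against a floor of 3 reads over the BAT group, its WAT mean was 30.5-fold higher, but WAT library 4 lay far below that mean. The limma log2 difference was 4.545 (limma adjusted p = 0.00341), and it ran from 2.541 to 5.494 over the alternatives that tested it. Among the classical chains, Col6a1 and Col6a2 were higher in WAT by log2 1.44 ± 0.27 and 1.22 ± 0.26 (SE, limma adjusted p = 0.00195 and 0.00469). Col6a3 had 2761, 2461, 1958 and 2229 in WAT, against 2440.0, 1449, 3153 and 1347 in BAT, which overlap, and its log2 difference of 0.25 ± 0.27 did not pass (SE, limma adjusted p = 0.482). Col6a4, Col6a5 and Col6a6 are close relatives, and how reads shared between them were counted is not given in the sources used here.

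Type IV chains were called higher in WAT for 4 of 6, against 22.1% of all genes, and of these 4 Col4a6 passed the filter only through WAT. Col4a6 and Col4a5, chains that form a trimer apart from the main type IV network, are transcribed away from each other on chromosome X. Col4a6 (chrX:141165403-141474076, minus strand) had 453, 549.6, 443 and 101 in WAT, against 1.24, 3.84, 0 and 2.96 in BAT. The BAT values are 6 reads in all, and the log2 difference was 6.99 ± 0.65 (SE, limma adjusted p = 4.6e-05). Col4a5 (chrX:141475385-141689234, plus strand) had 937, 1105, 744 and 249 in WAT, against 161, 99.8, 106 and 88.7 in BAT, and its log2 difference was 2.57 ± 0.43 (SE, limma adjusted p = 0.00144). Neither gene overlapped between the tissues, and WAT library 4 was the lowest WAT library for both. Col4a5 over Col4a6 per kilobase was 1.99 to 2.93 in WAT and 30.9 to 154 in the 3 BAT libraries where Col4a6 had a read. Mesothelium markers summed to 1960 to 13730 in WAT and 98.5 to 225 in BAT, and within WAT they too were lowest in library 4. So were the sums of stromal, macrophage and Schwann cell markers, at 14550, 10120 and 502, while the other marker lists were lowest in other WAT libraries. Further chains, among them Col1a1, Col1a2, Col3a1 and Col18a1, were lowest in WAT library 4 as well. The part of the mesothelium or of any other cell type in these differences was not tested.

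The start sites of the pair in RefSeq (GRCm38.p6) lie 1342 bases apart, and their upstream sequences are shown because both genes were higher in WAT. The Col4a5 sequence stops where the GENCODE M21 gene begins. The CCAAT motif, the TATAAA motif and the GGGCGG motif were searched on both strands, and capitals mark a match.
Col4a6 upstream, chrX:141474077-141474326, minus strand: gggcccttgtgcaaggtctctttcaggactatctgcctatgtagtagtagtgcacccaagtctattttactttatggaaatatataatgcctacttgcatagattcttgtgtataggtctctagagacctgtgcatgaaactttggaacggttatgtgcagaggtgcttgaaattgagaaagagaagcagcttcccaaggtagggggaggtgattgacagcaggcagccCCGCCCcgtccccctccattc
Col4a5 upstream, chrX:141475169-141475384, plus strand: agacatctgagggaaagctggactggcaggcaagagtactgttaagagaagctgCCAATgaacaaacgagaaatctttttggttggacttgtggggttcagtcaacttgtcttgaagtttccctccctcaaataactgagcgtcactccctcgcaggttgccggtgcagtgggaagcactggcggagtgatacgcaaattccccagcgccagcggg
Col4a6 held GGGCGG on the opposite strand 21 bases before its start site, and Col4a5 held CCAAT 196 bases before its own. In the 250 bases upstream, GGGCGG was found in 57.9% of 38 promoters of 35 collagen genes and in 32.7% of 32851 promoters. CCAAT was found in 34.2% of the collagen promoters against 33.8% of all, and TATAAA in 13.2% against 12.4%. These are counts of letters and say nothing of binding.

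Within the main type IV pair the difference was small. Col4a1 had 23732, 21162, 23807 and 24814 in WAT, against 12632, 13505, 21620.1 and 15206 in BAT, and BAT library 3 lay above WAT library 2. The log2 difference was 0.60 ± 0.21 (SE, limma adjusted p = 0.0411), and it no longer passed in 6 of 8 fits that each left out 1 library (all but WAT library 2 and BAT library 3) or, at 0.34, without the BAT libraries high in muscle genes. Col4a2 gave 0.48 ± 0.21 and did not pass (SE, limma adjusted p = 0.0939). Col4a4, which builds the basement membrane of the kidney filter together with Col4a3 and Col4a5, had 237, 246, 168 and 252 in WAT, against 96.9, 51.2, 78.5 and 59.1 in BAT, with no overlap. It passed at log2 1.67 ± 0.25 (SE, limma adjusted p = 0.0006). Its partner Col4a3 gave 0.71 ± 0.36, which did not pass (SE, limma adjusted p = 0.14).

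Both multiplexins were higher in WAT. Col18a1, the source of the endostatin fragment, had 3604, 3476, 3528 and 2128 in WAT, against 484, 433, 811 and 375 in BAT, with no overlap, and a log2 difference of 2.63 ± 0.26 (SE, limma adjusted p = 6.5e-05). Col15a1 had 8732, 3737, 3749 and 9748 in WAT, against 1525, 1182, 2124 and 912 in BAT (log2 2.10 ± 0.38, SE, limma adjusted p = 0.00213). WAT libraries 1 and 4 were high in Col15a1. The fibrillar chain Col5a3 showed the same split, with 15578, 3903, 3786 and 13763 in WAT, against 2240.1, 1834, 2391 and 1129 in BAT, and passed at 2.04 ± 0.52 (SE, limma adjusted p = 0.0125).

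Of the hexagonal network and FACIT genes 1 each was higher in WAT. Col8a2 (chr4:126286793-126314330) had 148, 146, 79.9 and 80.6 in WAT, against 16.1, 11.5, 5.71 and 0 in BAT. The groups did not overlap and the log2 difference was 4.15 ± 0.80 (SE, limma adjusted p = 0.00264), but Col8a2 passed the filter only through WAT. The FACIT chain Col16a1 passed at 2.12 ± 0.40, and Col28a1 at 1.77 ± 0.34 (SE, limma adjusted p = 0.00265 and 0.00266). Of the fibrillar class, 4 of 11 were higher in WAT, namely Col5a3, Col5a1, Col5a2 and Col1a2. Type V chains Col5a1 and Col5a2 gave 1.44 ± 0.33 and 1.43 ± 0.28 (SE, limma adjusted p = 0.00609 and 0.0031), and Col1a2 gave 1.16 ± 0.36 (SE, limma adjusted p = 0.0259). Col1a2 no longer passed without WAT library 1, 2 or 3 or without BAT library 2 or 4, at 0.94 to 1.12. Col1a1 had 9546, 8581, 8804 and 4318 in WAT, against 8369, 2727, 8068 and 3339 in BAT, which overlap, and it did not pass, at 0.58 ± 0.42 (SE, limma adjusted p = 0.287). Col3a1 missed the threshold at 0.90 ± 0.34 (SE, limma adjusted p = 0.0595).

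The 6 chains lower in WAT came from several classes. Col27a1 (chr4:63214004-63334991), a fibrillar chain known from cartilage, had 65.4, 212, 53.5 and 95.9 in WAT, against 827, 1464, 2702 and 2099 in BAT, a log2 difference of -4.12 ± 0.48 (SE, limma adjusted p = 0.000254). Col11a2 (chr17:34039437-34066685), a minor fibrillar chain of cartilage, had 14.4, 18.4, 11.6 and 19.5 in WAT, against 184, 285, 404 and 285 in BAT (log2 -4.07 ± 0.30, SE, limma adjusted p = 1.6e-05). Col7a1 (chr9:108953586-108984875), the chain of the anchoring fibrils that hold the epidermis to the dermis, had 14.4, 21.8, 29.5 and 34.8 in WAT, against 299, 608, 325 and 272 in BAT (log2 -3.84 ± 0.34, SE, limma adjusted p = 3.9e-05). None of these 3 chains overlapped between the tissues. Col13a1, a membrane collagen known from the neuromuscular junction, had 5.23, 12.3, 2.33 and 11.03 in WAT, against 33.5, 30.7, 82.8 and 28.1 in BAT (log2 -2.41 ± 0.57, SE, limma adjusted p = 0.00749). The FACIT chain Col12a1, found in tendon and other dense tissue, had 138, 125, 143 and 78.9 in WAT, against 369, 255, 544 and 1017 in BAT (log2 -2.00 ± 0.39, SE, limma adjusted p = 0.00303). Both were without overlap. Col20a1, another FACIT chain, had 37.9, 124, 44.2 and 25.4 in WAT, against 99.3, 132, 169.9 and 127 in BAT, where WAT library 2 overlapped. Its log2 difference of -1.41 ± 0.43 (SE, limma adjusted p = 0.0252) no longer passed under total-count scaling or with the deposited size factors, at -0.89 and -0.56, nor in 7 of the settings that left out libraries.

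A few low chains followed single libraries. Col22a1, a FACIT chain of the junction between muscle and tendon, had 2.62, 797, 0 and 2.54 in WAT, against 24.8, 17.9, 0 and 0 in BAT. Col2a1, the main cartilage chain, had 0, 103, 2.33 and 2.54 in WAT, against 4.97, 0, 0 and 1.48 in BAT. WAT library 2, high in both, is the one high in germ cell markers. Col24a1, a fibrillar chain, had 7.85, 7.51, 0.776 and 2.54 in WAT, against 94.4, 23.0, 1.43 and 1.48 in BAT, and Col26a1 had 1.96, 26.6, 0.776 and 9.33 in WAT, against 29.8, 11.5, 0 and 0 in BAT. BAT libraries 1 and 2, high in both and in Col22a1, are the ones high in skeletal muscle markers. Col9a3, a FACIT chain of cartilage, had 7.19, 93.5, 15.5 and 11.9 in WAT, against 6.21, 3.84, 19.99 and 7.39 in BAT, with WAT library 2 high once more. Col11a1, a minor fibrillar chain, had 7.19, 7.51, 2.33 and 0.848 in WAT, against 23.6, 33.3, 5.71 and 19.2 in BAT, where BAT library 3 overlapped. The part of germ cells or muscle in these values was not tested. Without the WAT library high in germ cell markers 23 of 33 collagens were called between the tissues, with 6441 of 15718 genes, and without the BAT libraries high in muscle markers 22 of 35 were, with 5889 of 16987 genes.

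The inhibitor comparisons ask which chains differ once either microRNA is inhibited. Both inhibitor groups of a tissue are set against the same 4 scramblemiR libraries, so their ratios are not independent and are given side by side. Ratios and p-values are those of the authors' deposited tables, and values per library are recovered reads divided by the size factor of that table. No collagen passed an adjusted p under 0.05 in any of the authors' 4 deposited tables. The percentage of all genes passing in the authors' deposited tables was 0.00343% for WAT antimiR-224, which is 1 gene, and 0% for the others. Limma on the recovered reads called 0 collagens in each, and 0% of all genes. Collagens at an unadjusted p under 0.05 in the authors' deposited tables, among those with a mean of at least 10, numbered 0 of 38 for WAT antimiR-224, 3 of 37 for WAT antimiR-452, 0 of 29 for BAT antimiR-224 and 0 of 31 for BAT antimiR-452. Of all genes with such a mean, 2.29%, 3.71%, 1.3% and 0.375% were at that p in the same order, and of every listed gene 1.55%, 2.41%, 1.15% and 0.499%. By limma the same counts were 0 of 23, 3 of 23, 1 of 20 and 0 of 24 recovered collagens, against 5.97%, 4.66%, 5.68% and 4.19% of all genes tested.

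**Figure D3:**
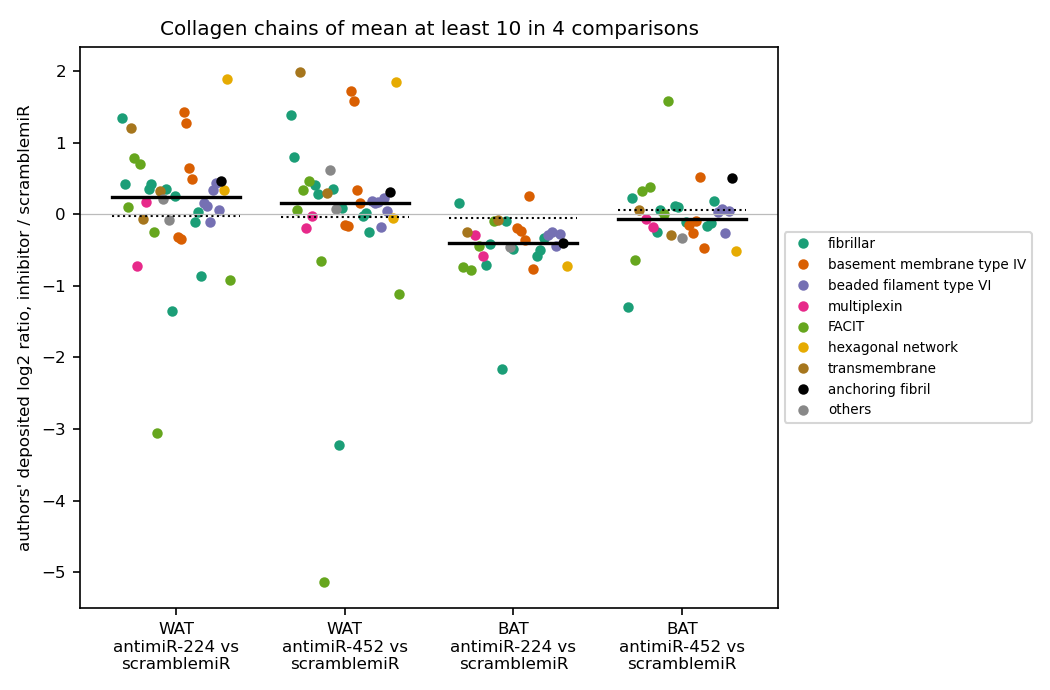
Log2 ratio of inhibitor over scramblemiR from the authors' deposited tables (y axis) for every collagen chain with a mean of at least 10, in the 4 comparisons, coloured by class. Solid lines mark the median of the collagens, at 0.24, 0.16, -0.41 and -0.07 for WAT antimiR-224, WAT antimiR-452, BAT antimiR-224 and BAT antimiR-452, and dotted lines the median of all genes. In BAT with antimiR-224, 27 of 29 chains lie under 0.

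In WAT with antimiR-224, 12 of 38 collagens were below scramblemiR and 26 above, against 52.9% of all genes below, and the median log2 ratio was 0.24 against -0.02 over all genes. By the difference of mean log2(value + 1), not the log2 of the ratio of means, 5 of 23 recovered collagens were below. This was 3 of 23 without antimiR-224 library 4, 8 of 23 without scramblemiR library 3 and 1 of 22 without scramblemiR library 2. The lowest p-values were those of Col4a5, Col8a2, Col16a1 and Col4a4. Col4a5 had 1542, 1474, 1881 and 1548 normalized counts in antimiR-224 libraries 1 to 4, against 1268, 1520.4, 999.7 and 338 in scramblemiR libraries 1 to 4. The groups overlapped at scramblemiR library 2, and the authors' deposited table gives a log2 ratio of 0.64 (p = 0.055). Its neighbour Col4a6 had 706, 592, 939 and 728 in antimiR-224, against 612, 756, 595 and 137 in scramblemiR, and library 4 was the lowest control for both genes. Mesothelium markers (2 of 8 recovered) had a geometric mean of 471, 539, 1430 and 804 in antimiR-224, against 545, 714, 787 and 140.4 in scramblemiR, and summed to 946 to 2867 and 286 to 1574. They were lowest in control library 4 too, as were the stromal, macrophage and Schwann cell marker sums of the controls given above.

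Col8a2 had 901, 1063, 166 and 153 in antimiR-224, against 200.003, 201, 107 and 109 in scramblemiR. Libraries 1 and 2 of antimiR-224 stood above all the others and libraries 3 and 4 lay among the controls, and the authors' deposited table gives log2 1.89 (p = 0.0598). Col4a4 had 985, 1351, 415 and 209 in antimiR-224, against 320.4, 339, 226 and 341 in scramblemiR (log2 1.27, p = 0.0771 in the authors' deposited table). Its partner Col4a3 had 432, 627, 124 and 75.4 in antimiR-224, against 153, 117, 74.0 and 122 in scramblemiR (log2 1.43, p = 0.108 in the authors' deposited table). Both overlapped. For Col4a4, antimiR-224 libraries 1 to 3 lay above every control and library 4 below every control. For Col4a3, libraries 1 and 2 lay above every control and libraries 3 and 4 among them. Col16a1 had 1396, 1712, 984 and 777 in antimiR-224, against 679.7, 1175, 757 and 366 in scramblemiR (log2 0.71, p = 0.0762 in the authors' deposited table). In this chain as well libraries 1 and 2 of antimiR-224 were the highest.

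Markers of ciliated epithelium were high in the same libraries. Their geometric mean (7 of 8 genes recovered) was 669, 833, 65.9 and 24.6 in antimiR-224 libraries 1 to 4, against 15.9, 188, 9.49 and 106 in scramblemiR. Their summed level was 391 to 6099 in antimiR-224 and 279 to 3335 in scramblemiR, and at most 1 of the 7 was at 0 in any of these libraries. Tubule epithelium markers (7 of 7) had 33.9, 90.3, 3.85 and 4.07 in antimiR-224, against 1.78, 8.64, 2.43 and 7.18 in scramblemiR, and summed to 184 to 2075 and 50.4 to 217. General epithelium markers (5 of 8) summed to 93.1 to 4144 in antimiR-224 and 51.1 to 469 in scramblemiR. Epididymis markers (4 of 6) summed to 1.11 to 4273 and 4.43 to 117.5. Both of these lists were highest in antimiR-224 libraries 1 and 2 as well. Without antimiR-224 libraries 1 and 2, the log2 difference of Col4a4 was -0.04 on the recovered reads. Without antimiR-224 libraries 3 and 4 and scramblemiR library 2, those high in germ cell markers, limma called 5 collagens higher in antimiR-224, with 1249 of 14615 genes called in all. These were Col8a2 at 2.87 ± 0.30, Col4a3 at 2.21 ± 0.34, Col4a4 at 1.98 ± 0.23, Col27a1 at 1.53 ± 0.34 and Col16a1 at 1.43 ± 0.32 (log2 ± SE). The antimiR-224 libraries left in that fit are those high in ciliated epithelium markers. The part of epithelium or epididymis in these values was not tested.

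**Figure D4:**
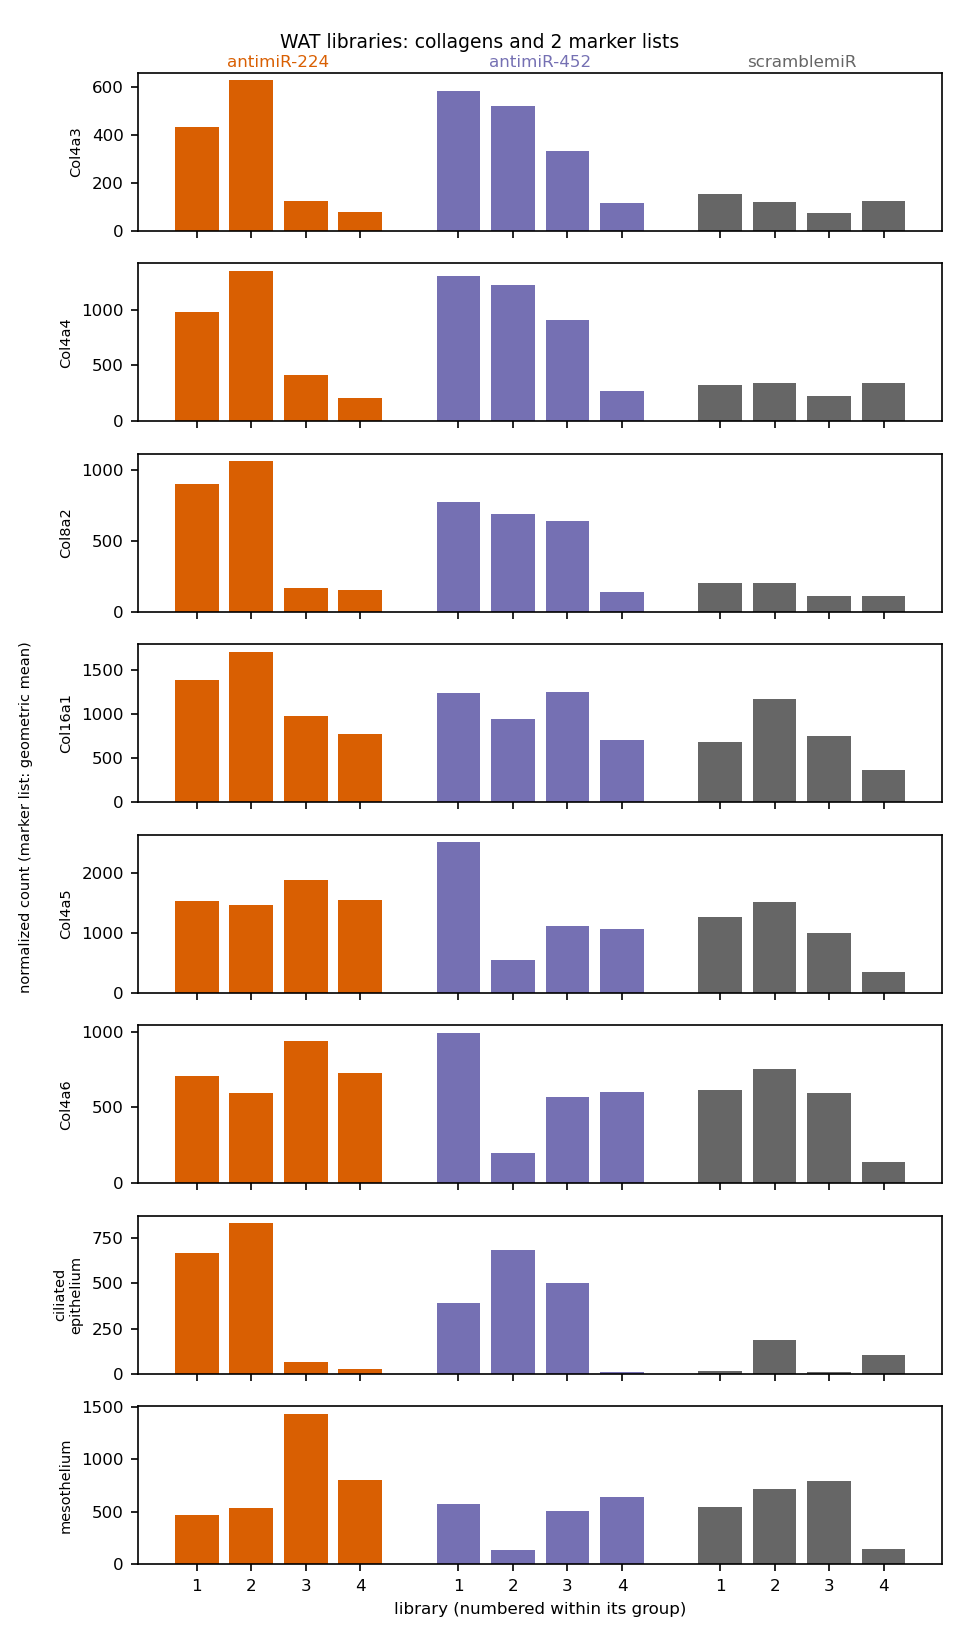
Normalized counts of 6 collagen chains and geometric mean of 2 marker lists in each WAT library (bars, 4 libraries per treatment, each y axis starting at 0). Col4a3, Col4a4 and Col8a2 are high in libraries 1 and 2 of antimiR-224 and 1 to 3 of antimiR-452, as are the ciliated epithelium markers. Col4a5 and Col4a6 are low in scramblemiR library 4 and antimiR-452 library 2, where the mesothelium markers are low. Stromal, macrophage and Schwann cell marker sums, not drawn, were also lowest among the controls in scramblemiR library 4.

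The groups of 1 of the 23 recovered collagens did not overlap in WAT with antimiR-224, against 3.5% of all genes and 1.74% with the inhibitor higher. This was Col11a2, which had 29.6, 27.2, 30.5 and 28.8 in antimiR-224, against 19.5, 25.4, 15.6 and 26.4 in scramblemiR (log2 0.42, p = 0.764 in the authors' deposited table). In the authors' deposited table Col1a1, Col1a2 and Col3a1 had log2 0.36, 0.43 and 0.26 (p = 0.166, 0.116 and 0.473). Col4a1 and Col4a2 had -0.31 and -0.35 in the authors' deposited table (p = 0.234 and 0.171). Col5a3 and Col15a1, high in control libraries 1 and 4, had -0.86 and -0.73 (p = 0.184 and 0.11 in the authors' deposited table). The most negative ratio was that of Col22a1, at -3.05 in the authors' deposited table. Col22a1 had 0, 2.91, 117 and 13.3 in antimiR-224, against 3.54, 1097, 0 and 3.45 in scramblemiR. Library 2 of scramblemiR stood far above the other controls.

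In WAT with antimiR-452, 12 of 37 collagens were below scramblemiR and 25 above, against 56.8% of all genes below, with a median log2 ratio of 0.16 against -0.04 over all genes. By the difference of mean log2(value + 1) 7 of 23 recovered collagens were below. This was 11 of 22 without antimiR-452 library 1, 11 of 23 without scramblemiR library 4 and 1 of 21 without scramblemiR library 2. No recovered collagen, of 23, had groups that did not overlap, against 1.71% of all genes and 0.991% with the inhibitor higher. The 3 collagens at an unadjusted p under 0.05 were Col8a2, Col4a4 and Col4a3. Col8a2 had 776, 690.2, 639 and 137 in antimiR-452, against 200.1, 203, 108 and 110.1 in scramblemiR (log2 1.85, p = 0.00266, adjusted p = 0.385 in the authors' deposited table). Col4a4 had 1308, 1222, 905 and 269 in antimiR-452, against 321, 342, 228 and 344 in scramblemiR (log2 1.59, p = 0.00454, adjusted p = 0.5 in the authors' deposited table). Col4a3 had 580.5, 521, 332 and 113 in antimiR-452, against 153, 118, 74.6 and 123 in scramblemiR (log2 1.72, p = 0.0058, adjusted p = 0.573 in the authors' deposited table). In all 3 chains antimiR-452 libraries 1 to 3 lay above every control and library 4 lay among the controls. Col13a1, next by p, had 69.1, 66.6, 30.6 and 1.11 in antimiR-452, against 7.08, 17.0, 3.15 and 15.1 in scramblemiR, with antimiR-452 library 4 lowest again (log2 1.98, p = 0.181 in the authors' deposited table).

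Ciliated epithelium markers had a geometric mean of 389.7, 683, 502 and 6.90 in antimiR-452 libraries 1 to 4, against 15.9, 188, 9.49 and 106 in scramblemiR, and summed to 276 to 4967 in antimiR-452, with at most 2 of 7 at 0. Tubule epithelium markers had 58.0, 39.3, 36.6 and 1.61 in antimiR-452 and summed to 195 to 1843. Both lists were highest in the libraries where Col4a3, Col4a4 and Col8a2 were. General epithelium markers summed to 2655, 3330, 2674 and 92.1 over antimiR-452 libraries 1 to 4, and epididymis markers to 1139, 77.0, 47.5 and 14.4. Col8a2, Col4a4 and Col4a3 were called higher by limma without antimiR-452 library 4, with 532 of 15614 genes called. Their differences were 2.23 ± 0.28, 1.89 ± 0.20 and 2.02 ± 0.30 (log2 ± SE, in that order). That library lay among the controls in these chains, so a fit without it cannot test whether they were higher in the group. With any other single library left out, 0 collagens and 0 genes were called. Without antimiR-452 libraries 1 to 3, which leaves library 4 alone against the controls, the log2 differences were -0.12 for Col8a2, -0.18 for Col4a4 and -0.0039 for Col4a3. Col4a5 had 2519, 550.5, 1122 and 1068 in antimiR-452, and Col4a6 had 992, 199.7, 567 and 601. Both were lowest in library 2, where mesothelium markers, at 569.7, 135, 501 and 642 over these libraries, were lowest as well. The part of any of these cell types was not tested.

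The chains with a miR-224 seed match had ratios of both signs. In the authors' deposited table for WAT antimiR-224 the log2 ratios of Col6a1, Col6a5, Col7a1, Col12a1 and Col23a1 were 0.15, 0.44, 0.47, 0.10 and 0.32, beside those of Col4a3, Col4a4 and Col22a1 given above. In the authors' deposited table for BAT antimiR-224 the 6 with a mean of at least 10 were Col4a3 at -0.36, Col4a4 at 0.25, Col6a1 at -0.29, Col7a1 at -0.41, Col12a1 at -0.74 and Col23a1 at -0.07. None of these passed an adjusted p under 0.05 in either tissue.

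In BAT with antimiR-224 most collagens lay below the controls. Of 29 with a mean of at least 10, 27 were below scramblemiR, against 55.5% of all genes, and the median log2 ratio was -0.41 against -0.05 over all genes. The 2 above were Col4a4 at 0.25 and Col11a2 at 0.15 in the authors' deposited table. By class, 8 of 9 fibrillar, 4 of 5 type IV, 4 of 4 type VI, 4 of 4 FACIT and 2 of 2 multiplexin chains were below. No single chain passed, and the lowest p among the 29 was 0.125 in the authors' deposited table. These chains share their libraries, so their number adds no replicates.

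Col4a5 had 58.3, 40.9, 55.6 and 44.3 in antimiR-224, against 120.2, 75.4, 78.3 and 65.2 in scramblemiR. Of 20 recovered collagens it was the 1 whose groups did not overlap, against 3.59% of all genes, 2.22% with the inhibitor higher and 1.37% with it lower. Its log2 ratio was -0.77 (p = 0.125 in the authors' deposited table), and limma gave -0.73 ± 0.27 (SE, limma adjusted p = 0.739). Col8a1 had 52.7, 87.7, 57.8 and 50.2 in antimiR-224, against 174, 67.7, 109 and 59.8 in scramblemiR (log2 -0.72, p = 0.142 in the authors' deposited table). Col18a1 had 384, 256, 170.1 and 232 in antimiR-224, against 360.5, 327, 601 and 276 in scramblemiR (log2 -0.59, p = 0.175 in the authors' deposited table). Both overlapped. Col12a1 had 259, 244, 211 and 255 in antimiR-224, against 275, 192, 403 and 748 in scramblemiR, so the control group spread widely (log2 -0.74, p = 0.222 in the authors' deposited table). For the type I chains Col1a1 and Col1a2 the authors' deposited table gives -0.71 and -0.41 (p = 0.319 and 0.538), and the controls of Col1a1 were 6230.0, 2061, 5984 and 2457. Col11a1, under a mean of 10 and picked out after its values were seen, had 2.40, 0.835, 1.13 and 4.67 in antimiR-224, against 17.6, 25.1, 4.23 and 14.1 in scramblemiR (log2 -2.76, p = 0.00117, adjusted p = 1 in the authors' deposited table). Col6a4, at 0 in the BAT controls, averaged 2.96 in the antimiR-224 group of the authors' deposited table (p = 0.142).

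Stromal chains differed widely between the libraries of one BAT group. Col5a1 had 1218, 558, 566 and 476 in antimiR-224 and 1841, 391, 899 and 648 in antimiR-452, against 1362, 684, 1588 and 568 in scramblemiR. Col14a1 had 438, 34.3, 28.4 and 115 in antimiR-224 and 1171, 13.6, 84.3 and 57.9 in antimiR-452, against 389, 167, 428 and 70.7 in scramblemiR. Markers of fibroblasts and stromal progenitors (8 of 10 recovered, none at 0) had a geometric mean of 562, 188, 210 and 256 in antimiR-224 and 1192, 137, 242 and 194 in antimiR-452, against 474, 295, 575 and 226 in scramblemiR. Library 1 of each inhibitor group and libraries 1 and 3 of scramblemiR were the high ones in all of these. The marker sum was 2900 to 6391 in antimiR-224, 2380 to 13540.0 in antimiR-452 and 3003 to 6779 in scramblemiR. The part of stromal cells in the BAT ratios was not tested. The BAT libraries high in muscle genes were library 1 of antimiR-224 and libraries 1 and 2 of scramblemiR. Without them, 75% of the recovered collagens were below the controls with antimiR-224, by the difference of mean log2(value + 1).

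**Figure D5:**
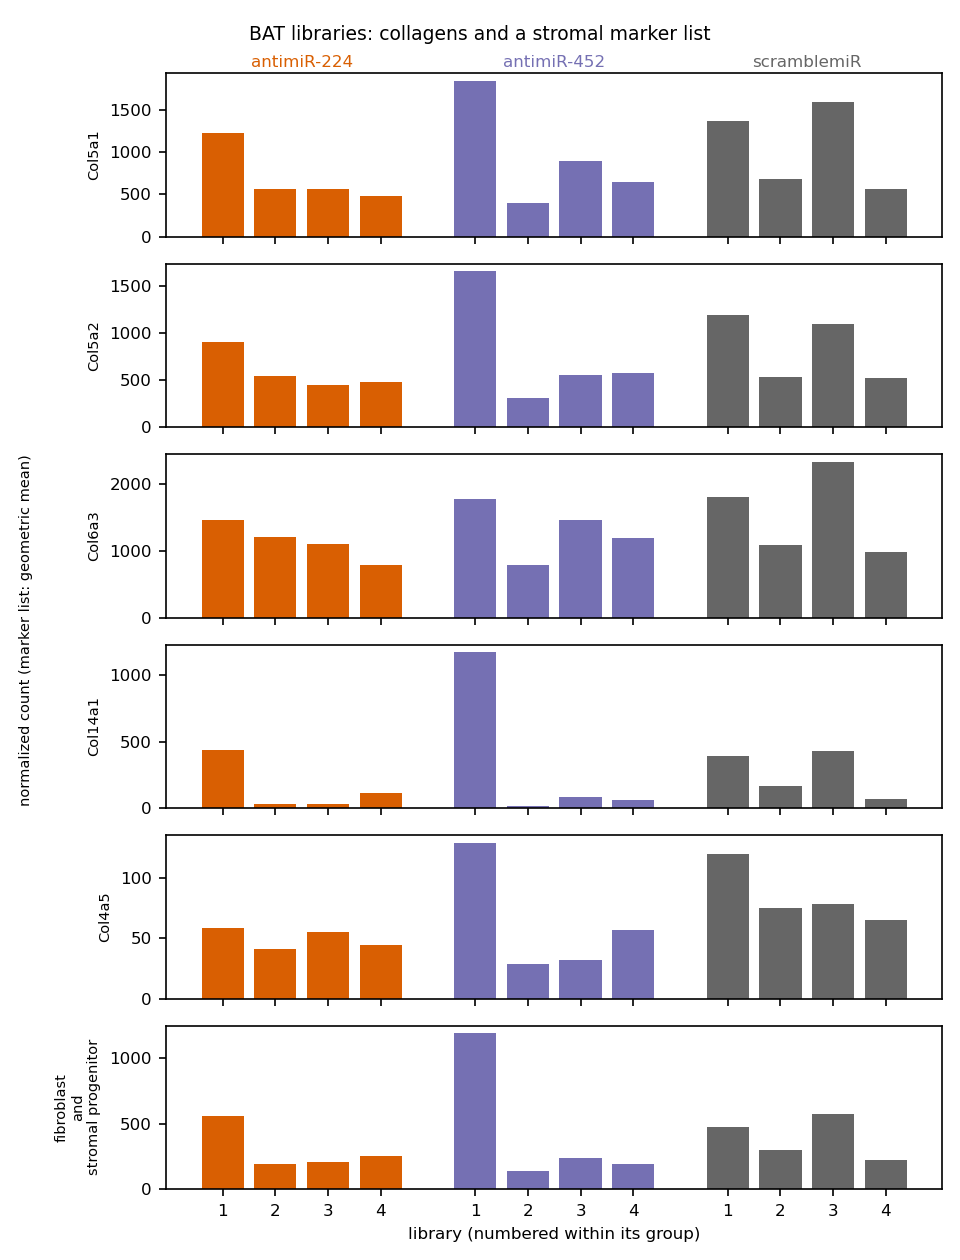
Normalized counts of 5 collagen chains and geometric mean of the stromal marker list in each BAT library (bars, 4 libraries per treatment, each y axis starting at 0). Col14a1 is high in library 1 of antimiR-224, library 1 of antimiR-452 and libraries 1 and 3 of scramblemiR, where the stromal markers are high as well.

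In BAT with antimiR-452, 16 of 31 collagens were below scramblemiR and 15 above, against 43.9% of all genes below, with a median of -0.07 against 0.06 over all genes. By the difference of mean log2(value + 1), not the log2 of the ratio of means, 18 of 24 recovered collagens were below. This ran from 14 of 24 without scramblemiR library 3 to 21 of 24 without scramblemiR library 4. No recovered collagen, of 24, had groups that did not overlap, against 3.32% of all genes. Col11a1 had 6.00, 6.80, 5.02 and 7.24 in antimiR-452, against 17.7, 25.3, 4.23 and 14.4 in scramblemiR (log2 -1.30, p = 0.129 in the authors' deposited table). The overlap came from control library 3. Col12a1 had 254, 339, 232 and 223 in antimiR-452, against 276, 193, 403 and 763 in scramblemiR (log2 -0.64, p = 0.293 in the authors' deposited table). Col8a1 had 106, 102, 35.1 and 46.5 in antimiR-452, against 175, 68.0, 109 and 60.96 in scramblemiR (log2 -0.51, p = 0.402 in the authors' deposited table). Col4a4 had 159, 49.5, 57.2 and 43.4 in antimiR-452, against 72.6, 38.9, 58.2 and 44.3 in scramblemiR (log2 0.53, p = 0.369 in the authors' deposited table). Library 1 of antimiR-452 alone lay above the controls in Col4a4, and without it the log2 difference was -0.06.

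Class shares of the summed level per kilobase were also computed from the deposited means. In WAT the type IV share was 26.9% with antimiR-224 and 28.9% with antimiR-452, against 32.3% with scramblemiR, and the fibrillar share was 44.9% and 43.1%, against 40.9%. In BAT the type IV share was 46.1% with antimiR-224 and 39.9% with antimiR-452, against 42.2% with scramblemiR, and the fibrillar share was 37.0% and 41.9%, against 40.9%. The hexagonal network took 0.695% with antimiR-224 and 0.624% with antimiR-452 in WAT, against 0.267% with scramblemiR. These shares come from group means, so they have no error.

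Between the inhibitors, limma called 0 of 22 collagens in WAT and 0 of 21 in BAT (antimiR-224 minus antimiR-452), and 0% of all genes. At an unadjusted p under 0.05 there were 0 collagens, against 1.31% of all genes in WAT and 0.82% in BAT. The lowest p in WAT was that of Col8a1, at log2 0.50 ± 0.34 (SE, limma adjusted p = 1). In BAT it was that of Col7a1, at -0.63 ± 0.57 (SE, limma adjusted p = 1). Whether the effect of an inhibitor differed between the tissues was tested as an interaction, WAT minus BAT, and 0 collagens and 0% of all genes passed. With antimiR-224, 1 of 20 collagens was at an unadjusted p under 0.05, against 7.36% of all genes, namely Col4a5 at 1.54 ± 0.49 (SE, limma adjusted p = 0.652). With antimiR-452 it was 1 of 24, against 5.55% of all genes, namely Col4a3 at 1.93 ± 0.84 (SE, limma adjusted p = 0.835). On simulated data of this size limma called 95 to 98 of 100 genes changed 4-fold and 21 to 36 of 100 changed 2-fold in the inhibitor comparisons. In the interactions it called 64 to 65 and 5 of 100. The simulated spread between libraries was set in advance, not taken from these data, and no simulated library stood apart like those described above. These figures therefore do not give the power of the tests on these libraries.

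Genes that make, process, bind or degrade collagen were counted from a list by role, also chosen with earlier results known. Between WAT and BAT controls, 42 of 69 partners passed as higher and 6 as lower in WAT, against 22.1% and 19.9% of all genes, with a median log2 difference of 0.90. The higher stromal, macrophage and mature adipocyte marker sums in WAT given above accompany these counts too, and their part was not tested. All 5 lysyl oxidases, the enzymes that crosslink collagen, were higher in WAT, between Lox at 0.76 ± 0.18 and Loxl4 at 1.80 ± 0.47 (log2 ± SE, limma adjusted p = 0.00754 and 0.0123). Of 9 fibril-associated genes 7 were higher, among them the small proteoglycans Fmod at 6.24 ± 0.73, Ogn at 3.25 ± 0.33 and Dcn at 2.50 ± 0.27 (log2 ± SE, limma adjusted p = 0.000303, 9.2e-05 and 0.000102). Propeptide removal had 4 of 7 higher, led by the protease Tll1 at 3.20 ± 0.49 (log2 ± SE, limma adjusted p = 0.000688). Prolyl hydroxylation had 5 of 8 higher and 1 lower, the catalytic subunit P4ha1 at -0.94 ± 0.24 (log2 ± SE, limma adjusted p = 0.0117). Among type IV partners 5 of 7 were higher, led by the basement membrane linker Nid2 at 2.78 ± 0.29 (log2 ± SE, limma adjusted p = 8.7e-05). Among receptors 4 of 10 were higher and 2 lower, the integrin chain Itga1 at -1.28 ± 0.15 and Cspg4 at -1.24 ± 0.41 (log2 ± SE, limma adjusted p = 0.000152 and 0.0366). Of the 12 degradation genes 7 were higher, the proteinases Ctsk, Mmp9, Mmp12 and Mmp14 and the metalloproteinase inhibitors Timp1, Timp2 and Timp4, and 1 was lower, the metalloproteinase Mmp3 at -1.66 ± 0.39 (log2 ± SE, limma adjusted p = 0.00714). Folding and export had 2 of 6 higher. Lysyl hydroxylation and glycosylation had 3 of 5 higher and 2 lower, the hydroxylase Plod1 at -0.52 ± 0.15 and the glycosyltransferase Colgalt2 at -1.69 ± 0.36 (log2 ± SE, limma adjusted p = 0.0228 and 0.00398). With total-count scaling 52 partners were higher and 3 lower, and with the deposited size factors 59 and 1, and under both Plod1 turned, to 0.01 and 0.35, without passing.

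Under the inhibitors no partner passed an adjusted p under 0.05 in the authors' deposited tables. In BAT with antimiR-224, 52 of 66 partners lay below scramblemiR, against 55.5% of all genes, with a median of -0.25, and with antimiR-452 31 of 66 did, against 43.9%. In WAT 25 of 69 lay below with antimiR-224, against 52.9%, and 35 of 69 with antimiR-452, against 56.8%. Lum, a proteoglycan of collagen fibrils, was at an unadjusted p under 0.05 in WAT, at 0.60 and 0.54 with antimiR-224 and antimiR-452 (p = 0.0273 and 0.0416 in the authors' deposited tables). So was Ddr1, a collagen receptor of epithelium, at 0.76 and 0.77 (p = 0.0249 and 0.0111 in the authors' deposited tables). Pxdn, which crosslinks type IV collagen, was at -0.55 with antimiR-224 (p = 0.0164 in the authors' deposited table). In BAT the metalloproteinase Mmp12 was at -3.35 and -2.95 with antimiR-224 and antimiR-452 (p = 0.00507 and 0.0142 in the authors' deposited tables). Mmp13, a collagenase, was at -3.48 with antimiR-224 (p = 0.0236 in the authors' deposited table). Both had means under 10 in BAT and are not among the 66 partners counted there.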

How the data were processed

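The members and gene lists were chosen with earlier results of these data known. Per the submitters' processing notes, the authors used DESeq 1.10.1 in R 2.15.3 and the GRCm38.p4 build; the sources used here name no aligner, counter or gene models. Per the labels' protocols, polyadenylated RNA went into strand-specific libraries. The authors deposited 4 tables, 1 per inhibitor and tissue, each normalized separately. Per the file headers, they hold a mean normalized count of each group (a signal), the ratio of the means, its log2, and a p-value before and after adjustment. Symbols came from GENCODE M21 for 99.42% to 99.48% of identifiers.

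The deposited p-values are the test of each inhibitor against scramblemiR. A group mean is a sum of whole reads, each divided by its library's size factor and then by 4, and the printed digits were solved for those 4 reads. This gave 1 solution for 100% of genes in controls and for 89.75% to 92.89% in inhibitor groups; highly expressed chains are missing from the inhibitor groups. In a simulation 0 wrong solutions were returned. Libraries of a group differed beyond sampling noise (chi-square per degree of freedom at least 11.1).

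Recovered normalized counts were used for the other comparisons and as an alternative for the inhibitors. The test was limma 3.58.1 (R 4.3.3) on log2(value + 1), which understates changes of low genes, for genes whose mean reached 10, with a robust variance trend, and p-values adjusted by Benjamini-Hochberg were held to 0.05. WAT and BAT controls were put on 1 scale by the median of ratios over the 8 libraries. In the file headers, 2 scramblemiR, 2 antimiR-224 and 3 antimiR-452 library numbers recur between the tissues, which the labels do not explain, and the tissues were treated as independent. Values per library are given for the highest chain of each class, the 4 chains of lowest deposited p in each comparison, the 6 largest called tissue differences each way and the chains of 1 trimer. Alternatives were other pseudocounts, filters and scalings, no robust variance, and leaving out single libraries or those high in germ cell, epithelium or muscle genes; these sets were chosen with marker values known. Leaving out libraries high in muscle in BAT, and the shares below 0 without each library, were added after seeing the data. MicroRNA and promoter sequences are RefSeq (GRCm38.p6), and gene coordinates and exon lengths GENCODE M21 (GRCm38). Other tools were Python 3.11.15, numpy 2.4.6, pandas 2.3.3 and matplotlib 3.10.9.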

Additional observations from a re-analysis of the deposited data

Results flagged for a closer look

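In 10 of 141 collagen groups with 4 recovered libraries (7.09%, where chance flags about 1 in 20) 1 library lay far from the other 3 of its group. In WAT scramblemiR, library 4 was low in Col1a1 at 5846 and in Col18a1 at 2882, against at least 11810 and 4741 in the other controls, and library 3 was low in Col28a1 at 110.5. In WAT antimiR-224, library 3, one of those high in germ cell markers, was high in Col20a1 at 129.8, against 42.7 to 49.7. In BAT antimiR-224, library 1 was high in Col5a1 at 1218 and in Col16a1 at 122.9. In BAT antimiR-452, library 1 was high in Col14a1 at 1171 and in Col4a4 at 158.5. Both libraries are those highest in stromal markers in their group, and both are also counted with those high in muscle genes. In BAT scramblemiR, library 3 was high in Col13a1 at 61.4 and library 2, one of those high in muscle markers, was high in Col7a1 at 459.4.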

How the results depend on the processing

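No paired analysis was possible because the recovered libraries cannot be tied to a replicate number. The count of collagens called between WAT and BAT was 24 and stayed between 21 and 31 under every alternative run, from 21 to 26 as single libraries were left out. Under the inhibitors the count was 0 and stayed 0, except in WAT with antimiR-224 without the libraries high in germ cell markers (5) and in WAT with antimiR-452 with single libraries left out (0 to 3, the 3 without antimiR-452 library 4). The share of collagens below the controls rests on the deposited ratios of group means, for all chains of mean at least 10. The alternatives that leave out libraries cover fewer chains, the recovered ones, and use another measure, the difference of mean log2(value + 1). By that measure, with all libraries, 5 of 23 recovered chains were below in WAT with antimiR-224 and 7 of 23 in WAT with antimiR-452. In BAT 18 of 20 were with antimiR-224 and 18 of 24 with antimiR-452. By the deposited ratios 16 of all 31 were below in BAT with antimiR-452, so some chains changed sign with the measure. The share was 93.1% by the deposited ratios in BAT with antimiR-224, and 80% to 95% by the other measure as single libraries were left out. It moved further elsewhere: in WAT with antimiR-224, 31.6% with all libraries, 4.55% (without scramblemiR library 2) to 34.8%, 13.0% without antimiR-224 library 4, 9.52% without the libraries high in germ cell markers and 40% (8 of 20, median log2 0.07, against 0.35 with all libraries) without those high in epithelium; in WAT with antimiR-452, 32.4% with all libraries, 4.76% (without scramblemiR library 2) to 50% (without antimiR-452 library 1), 20.8% without antimiR-452 library 2, 18.2% without the libraries high in germ cell or muscle genes and 61.9% (13 of 21) without those high in epithelium, which leaves antimiR-452 library 4 alone; in BAT with antimiR-452, 51.6% with all libraries, 58.3% to 87.5% (without scramblemiR library 4), 82.6% without antimiR-452 library 1, 78.3% without scramblemiR library 2, and 85.7% without those high in muscle genes. Signs turned for Col4a4 in WAT with antimiR-224 (-0.038), and for Col8a2 (-0.12), Col4a4 (-0.18) and Col4a3 (-0.0039) in WAT with antimiR-452, without the libraries high in epithelium, and for Col4a4 in BAT with antimiR-452, without antimiR-452 library 1 (-0.062, up to 0.553 as other libraries were left out) and without the libraries high in muscle genes (-0.030); the cause was not tested. Over the 4 chains of lowest p in each inhibitor comparison and the tissue differences printed above, 685 values kept their direction and side of the threshold, 6 reversed, 18 newly passed and 22 no longer passed. Those newly passing between the tissues were Col1a1, Col3a1, Col4a2, Col4a3 and Col6a3 under other scalings, Col3a1 without WAT library 4 or BAT library 1 or 3, and Col4a2 without BAT library 3. Those no longer passing were 9 of Col20a1, 7 of Col4a1 and 6 of Col1a2 between the tissues, and the other 21 called collagens stayed called in every alternative that tested them; Col6a4 was not tested without WAT library 2, nor Col6a4 and Col13a1 at a mean of at least 50. Counts per library limit the low chains, such as Col4a6 in BAT with 6 reads in 4 controls.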

Other observations

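Over the 12 WAT libraries, the genes whose log2 level went most closely with the mean of the 4 recovered fibrillar chains (Col2a1, Col11a1, Col11a2 and Col27a1) were Ccdc30, Agbl4, Armc3, Pknox2 and Ralgps2, with Pearson coefficients of 0.956, 0.955, 0.954, 0.952 and 0.951 among 15214 genes. These libraries share the depth, tissue and cell makeup given above, the abundant fibrillar chains are not in the mean, and the values are a description with no test. Among the WAT controls, library 2 was highest in Col2a1 at 103 and in Col27a1 at 212. That library is high in germ cell markers, and its part in the coefficients was not tested.

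Between WAT and BAT controls, Col10a1, a chain of growth-plate cartilage, was at 0 in all 4 WAT libraries and had 7.45, 1.28, 11.4 and 4.43 normalized counts in BAT libraries 1 to 4. It was too low for the test, and passed it only when no filter on low values was set, where 25 collagens were called.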
